A study of Mus musculus with 27 samples.

Results

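The 37 genes described here encode the clotting factors, their inhibitors and the fibrinolytic system, as measured in zones of the maternal mouse liver. They were chosen by symbol from the 21823 genes of the deposited table, and all 37 were found. They fell into 7 roles: 10 procoagulant zymogens and cofactors, 5 genes for the clot substrate and its cross-linking, 3 of the contact system, 9 anticoagulants, 6 of fibrinolysis and its inhibitors, 2 broad protease inhibitors and 2 of the vitamin K cycle. The question was how their transcripts were spread over the liver lobule and how they differed between stages of pregnancy.

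RNA was sequenced from laser-microdissected liver of wild-type female C57BL/6 mice (C57BL/6N in the methods). The methods give an age of 8 to 14 weeks and the reporting form one of 8 weeks to 12 months. Non-pregnant (NP) mice, mice at 8 days post-coitum (8 dpc) and mice at 16 dpc were each sampled in zone 1, zone 2 and zone 3 of the lobule, with 3 libraries for each of the 9 groups and 27 in all. Zone 1 lies around the portal vein, zone 3 around the central vein and zone 2 between them. By their labels the groups shared genotype, strain and sex and differed in stage and zone. The study describes the 3 libraries of a group as independent experiments, but neither age nor animal is given for a library, so zones of the same number may come from the same mouse, and p-values measure only the spread between these libraries. Values are FPKM (fragments per kilobase of transcript, scaled to the mapped reads of a library), which corrects for transcript length, so levels of different genes could be set side by side.

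Most clotting proteins of the blood are made by hepatocytes. A cascade of proteases, each activated by the one before it, ends with thrombin (F2), which turns fibrinogen into fibrin, and plasmin (Plg) later dissolves the fibrin. Several of these proteins work only after the vitamin K dependent carboxylase Ggcx has modified them in the liver. Factor VIII (F8), von Willebrand factor (Vwf), thrombomodulin (Thbd), the protein C receptor (Procr), tissue factor pathway inhibitor (Tfpi) and tissue-type plasminogen activator (Plat) are known chiefly as products of endothelial cells, and tissue factor (F3) as a product of cells around vessels. In pregnancy, plasma levels of several procoagulant proteins are known to rise.

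Promoters are shown for members that lie side by side in the genome, because their levels are compared below. Fgg, Fga and Fgb stand next to each other on chromosome 3, and F7, F10 and Proz on chromosome 8, with 1498 bases between F7 and F10, 11026 between Fgg and Fga and 6513 between Fga and Fgb. RefSeq sequences on GRCm38.p6 were found for 28 of the 37 members, and each stretch covers up to 250 bases before the annotated start, 5′ to 3′ on the strand of the gene. Capitals mark matches, on either strand, to 5 motifs: GTTAAT (HNF1), TTGCNNAA (C/EBP), CTGGGAA (the type II IL-6 response element), CAAAGNNCA (HNF4) and AGGTCA (nuclear receptors). The Fga stretch is chr3:83025903-83026075 on the plus strand and stops where the GENCODE gene begins, the Fgb stretch is chr3:83049864-83050113 on the minus strand, and the Fgg stretch is chr3:83007474-83007723 on the plus strand. The F7 stretch is chr8:13025784-13026033 and the F10 stretch chr8:13037058-13037307, both on the plus strand.
Fga: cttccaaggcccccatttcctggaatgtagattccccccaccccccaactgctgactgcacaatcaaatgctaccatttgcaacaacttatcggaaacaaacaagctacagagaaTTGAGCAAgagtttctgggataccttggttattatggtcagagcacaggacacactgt
Fgb: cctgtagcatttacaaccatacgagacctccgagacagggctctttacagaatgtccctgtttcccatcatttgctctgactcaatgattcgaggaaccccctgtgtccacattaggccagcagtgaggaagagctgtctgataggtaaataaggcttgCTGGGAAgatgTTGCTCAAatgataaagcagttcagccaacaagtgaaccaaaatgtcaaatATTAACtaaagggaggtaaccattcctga
Fgg: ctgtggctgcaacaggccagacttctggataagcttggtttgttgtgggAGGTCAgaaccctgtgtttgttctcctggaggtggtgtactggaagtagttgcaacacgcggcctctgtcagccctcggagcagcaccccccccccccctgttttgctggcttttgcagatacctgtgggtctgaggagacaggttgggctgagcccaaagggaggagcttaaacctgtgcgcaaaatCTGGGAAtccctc
F7: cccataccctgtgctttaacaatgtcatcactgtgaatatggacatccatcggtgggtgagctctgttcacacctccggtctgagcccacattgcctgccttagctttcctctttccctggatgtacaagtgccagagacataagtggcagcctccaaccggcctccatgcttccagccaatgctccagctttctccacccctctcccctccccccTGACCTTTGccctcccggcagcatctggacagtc
F10: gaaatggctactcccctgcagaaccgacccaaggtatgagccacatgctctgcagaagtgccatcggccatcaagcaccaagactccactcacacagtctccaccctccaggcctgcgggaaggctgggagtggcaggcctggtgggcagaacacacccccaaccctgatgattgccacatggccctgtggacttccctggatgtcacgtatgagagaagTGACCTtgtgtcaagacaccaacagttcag

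Fgb held an HNF1, a C/EBP and an IL-6 match, and Fga a C/EBP match in the stretch shown (its HNF1 match, 43 to 38 bases before the RefSeq start, lies in the part not shown, and its HNF4 match, 78 to 70 bases before it, runs over the end of the stretch). Fgg held an IL-6 match 13 to 7 and a nuclear receptor match 201 to 196 bases before its start. F7 held an HNF4 match 34 to 26 bases before its start, overlapped by a nuclear receptor match, and F10 a nuclear receptor match 30 to 25 bases before its start. Among 27025 RefSeq promoters of the same length, 6.52% held the HNF1 letters, 9.55% the C/EBP letters, 9.08% the IL-6 letters, 5.47% the HNF4 letters and 13.8% the nuclear receptor letters. Of the 28 members' promoters, 5, 9, 4, 4 and 8 held them, in the same order. A match describes letters in this window, and binding was not measured.

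The levels of the 37 genes spanned a wide range. Antithrombin (Serpinc1), the main inhibitor of thrombin, had the highest median, 2628 FPKM over the 27 libraries, with a range from 1483 to 5700. Fga followed at 2493, then the protease inhibitor Pzp at 2078, Fgg at 1896, and the kininogen gene Kng1 at 1571. Of the circulating serine proteases, plasminogen (Plg) had a median of 1275, prothrombin (F2) 846, factor X (F10) 270, protein C (Proc) 199.9, factor XII (F12) 194, factor VII (F7) 84.1, factor IX (F9) 82.1 and factor XI (F11) 30.3. Protein S (Pros1), the cofactor of protein C, lay near factor XI at 28.6. Among the remaining members with a median of at least 10 FPKM, the medians were 1066 for Fgb, 627 for the histidine-rich glycoprotein Hrg, 437 for the plasmin inhibitor Serpinf2, 295 for heparin cofactor II (Serpind1), 238 for the fibrin-protecting carboxypeptidase Cpb2 and 209 for Vkorc1. They were 198 for Kng2, 170 for factor V (F5), 155 for protein Z (Proz), 140 for its partner Serpina10, 99.7 for F13b, 71.8 for prekallikrein (Klkb1) and 44.2 for Ggcx. Each pair of neighbours in the order of all 37 medians had overlapping ranges over the 27 libraries, except Pros1, never below 16.9 FPKM, and F8, never above 15.9.

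A group of 10 members had medians under 10 FPKM. Their medians were 7.16 for F8, 5.20 for Tfpi, 5.04 for F3, 2.72 for Thbd, 2.68 for Vwf, 1.19 for Procr, 1.16 for the urokinase gene Plau, 0.278 for Plat, 0.0349 for F13a1 and 0 for A2m. F13a1, the A chain of the factor that cross-links fibrin, stayed under 1 FPKM in all 27 libraries, was listed at 0 in 13 and was the only member left out by the filter on low values. Its carrier chain F13b, a secreted product of hepatocytes, ranged from 36.4 to 170 FPKM. A2m, which encodes alpha-2-macroglobulin, was listed at 0 in 14 libraries, while its relative Pzp was never below 1068 FPKM. A2m passed the filter only through 3 libraries at 16 dpc.

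Zone labels were borne out by marker genes, with 11 of 12 periportal markers higher and 12 of 12 pericentral markers lower in zone 1 than in zone 3, averaged over stages. Read totals estimated from the steps between low values ran from 7.53 M to 33.4 M per library. In 6 libraries the 4 Y-linked genes measured here summed to 7.92 to 23.2 FPKM, although every library is labelled female, while the sum in the other 21 was at most 2.97. The 6 were NP zone 1 replicate 1, NP zone 3 replicate 2, 8 dpc zone 1 replicate 1, 8 dpc zone 2 replicate 2, 16 dpc zone 2 replicate 3 and 16 dpc zone 3 replicate 3. Their summed FPKM over 12 connective tissue and smooth muscle markers was 991 to 4629, against 84.7 to 597 in the other 21, and their summed FPKM over 10 hepatocyte markers was 48706 to 85297 against 57843 to 282973. Results are therefore given with and without these 6 libraries. In tissue such as this, fewer cells of a type and less RNA per cell cannot be told apart.

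Most of the vessel-associated members had their highest values in those 6 libraries. F3 was 17.6 to 142 FPKM in the 6 libraries, with a median of 37.2, and 0.916 to 9.94 in the other 21, so the ranges did not overlap. Thbd had a median of 13.9 FPKM in the 6 and 2.17 in the 21, and its ranges, 6.66 to 20.1 and 0.431 to 6.79, overlapped at their edges. Plat was 1.16 to 9.50 FPKM in the 6 and at most 0.920 in the 21. Procr reached 41.3 and 20.6 FPKM in the 16 dpc libraries of zones 2 and 3 from replicate 3, against at most 5.87 elsewhere. Tfpi had medians of 22.6 and 4.60 FPKM, and Plau of 12.2 and 0.864, in the 6 and the 21 libraries. F8 did not follow them, with medians of 4.22 FPKM in the 6 and 7.37 in the 21, nor did Vwf, with 1.89 and 3.59. Prothrombin went the other way, with F2 at 452 to 846 FPKM in the 6 and 766 to 2109 in the 21, while Pros1 had medians of 29.6 and 26.7 FPKM. Of the other marker lists, the summed FPKM of 13 endothelial markers was 125 to 240 in the 6 (median 148) and 177 to 401 in the 21 (median 267). The 6 biliary markers summed to medians of 65.4 and 10.6 FPKM, and the 4 mesothelial markers to 1.15 to 6.25 FPKM in the 6 and at most 1.49 in the 21. The part of these cell types in the values of the vessel-associated members was not tested. All of these are levels described after the 6 libraries were set apart by other genes, and no test was run between the 2 sets.

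**Figure D1:**
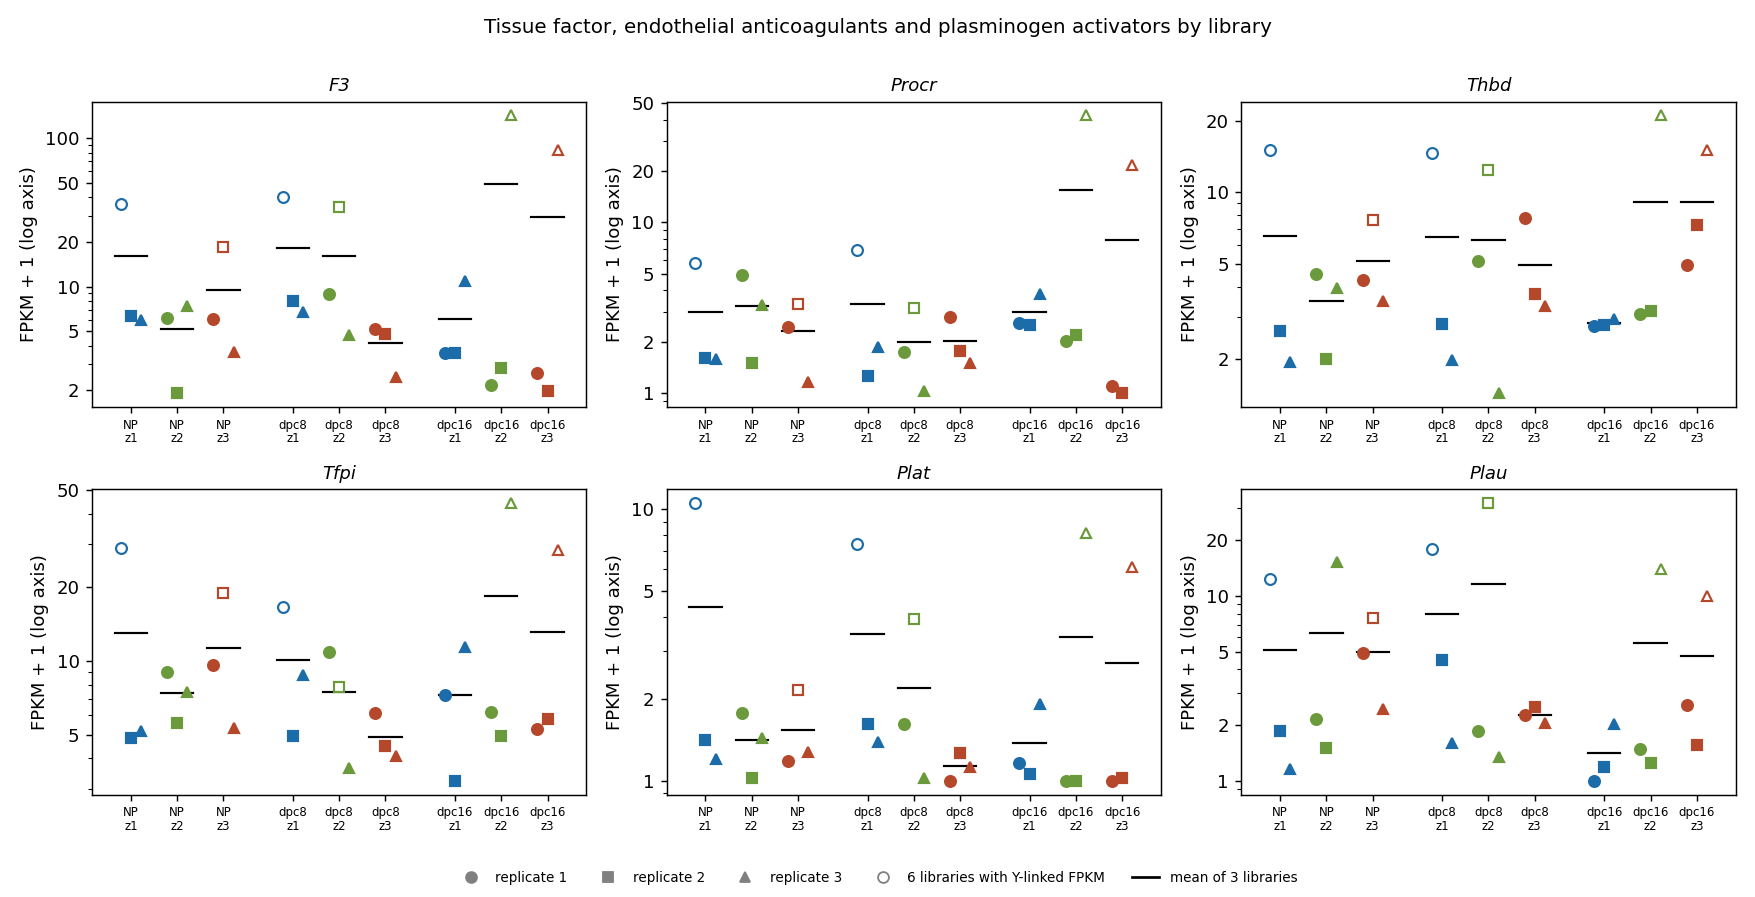
FPKM + 1 on a log axis for F3, Procr, Thbd, Tfpi, Plat and Plau in each library, by stage and zone (z1 to z3), with shapes for replicate numbers, open symbols for the 6 libraries with Y-linked FPKM and bars for the mean of 3 libraries. The open symbols are the highest in the F3 and Plat panels, and the 16 dpc zone 2 library of replicate 3 reaches 142 FPKM for F3 and 41.3 for Procr.

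Factor VII showed the clearest difference between stages. It is the protease that, bound to tissue factor, starts the cascade. In NP liver F7 was 40.4, 84.1 and 90.9 FPKM in the 3 libraries of zone 1, then 65.5, 64.6 and 58.5 in zone 2 and 40.0, 41.0 and 66.5 in zone 3. At 8 dpc it was 46.0, 80.6 and 90.6 in zone 1, then 91.3, 43.3 and 86.1 in zone 2 and 68.0, 57.5 and 57.0 in zone 3. At 16 dpc it was 211, 206 and 340 in zone 1, then 203, 207 and 89.6 in zone 2 and 175, 164 and 121 in zone 3. The 16 dpc libraries of each zone all lay above the NP libraries of that zone, including those from the 6 libraries set apart. With the log2 values of the 3 zones averaged for each stage and replicate number, giving 3 values a stage, F7 was 3.02-fold higher at 16 dpc than in NP liver (log2 difference 1.60 ± 0.19 SE, limma adjusted p = 0.0035). Against 8 dpc, F7 was higher by 1.42 on the log2 scale (adjusted p = 0.00754). It also rose within zone 1, by 1.84 ± 0.36 (adjusted p = 0.00865), and within zone 3, by 1.65 ± 0.36 (adjusted p = 0.0195), while the zone 2 difference of 1.30 did not pass (adjusted p = 0.0592). Leaving out NP zone 1 replicate 1 ended the zone 1 call (adjusted p = 0.0691), as did fitting only the groups compared (adjusted p = 0.115) and scaling on hepatocyte markers (log2 difference 0.86, adjusted p = 0.0673), and the zone 3 call ended without any of NP replicates 1 and 2 or 16 dpc replicates 1 and 2 (adjusted p from 0.0752 to 0.11).

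Factor X, the protease that activates prothrombin, rose as well. F10 was 178, 312 and 340 FPKM in NP zone 1, then 266, 256 and 251 in zone 2 and 219, 156 and 228 in zone 3. At 16 dpc it was 614, 638 and 746 in zone 1, then 644, 610 and 205 in zone 2 and 542, 511 and 311 in zone 3. Zones 1 and 3 did not overlap with NP, and zone 2 overlapped through replicate 3. Averaged over zones, F10 was 2.1-fold higher at 16 dpc than in NP (1.07 ± 0.24, adjusted p = 0.0456), and it was 0.99 higher than at 8 dpc (adjusted p = 0.0713). The call against NP was lost without any of 5 of the 6 stage and replicate averages, with adjusted p from 0.111 to 0.172, and kept without 16 dpc replicate 3. Testing without the filter on low values and fitting only the groups compared also ended this F10 call. The ratio of F7 to F10 within a library ran from 0.182 to 0.292 in NP, from 0.223 to 0.310 at 8 dpc and from 0.315 to 0.456 at 16 dpc, so the 16 dpc libraries lay above all others.

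Factor V, the cofactor of factor X, was 1.01 ± 0.21 higher on the log2 scale at 16 dpc than at 8 dpc (adjusted p = 0.0451). At 8 dpc F5 was 81.7, 133 and 115 FPKM in zone 1, then 149, 97.8 and 128 in zone 2 and 219, 186 and 175 in zone 3. At 16 dpc it was 262, 296 and 339 in zone 1, then 333, 317 and 110 in zone 2 and 391, 377 and 206 in zone 3. Against NP the difference was 0.85 (adjusted p = 0.0734). The call against 8 dpc was lost without any of 5 of the 6 averages, with adjusted p from 0.119 to 0.171. Testing without the filter on low values and fitting only the groups compared also ended this F5 call. Prothrombin (F2) was 1980 ± 129 FPKM (SD, n = 3) in zone 1 at 16 dpc and 795 ± 208 in NP zone 1. In zone 2 it was 1930, 1903 and 559 FPKM at 16 dpc and 919, 795 and 815 in NP, and in zone 3 it was 1700, 1712 and 846 at 16 dpc and 834, 602 and 788 in NP. The library of replicate 3 in zone 2, one of the 6, thus lay below all NP libraries of its zone. Its averaged difference of 0.94 ± 0.26 did not pass the test (adjusted p = 0.104).

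**Figure D2:**
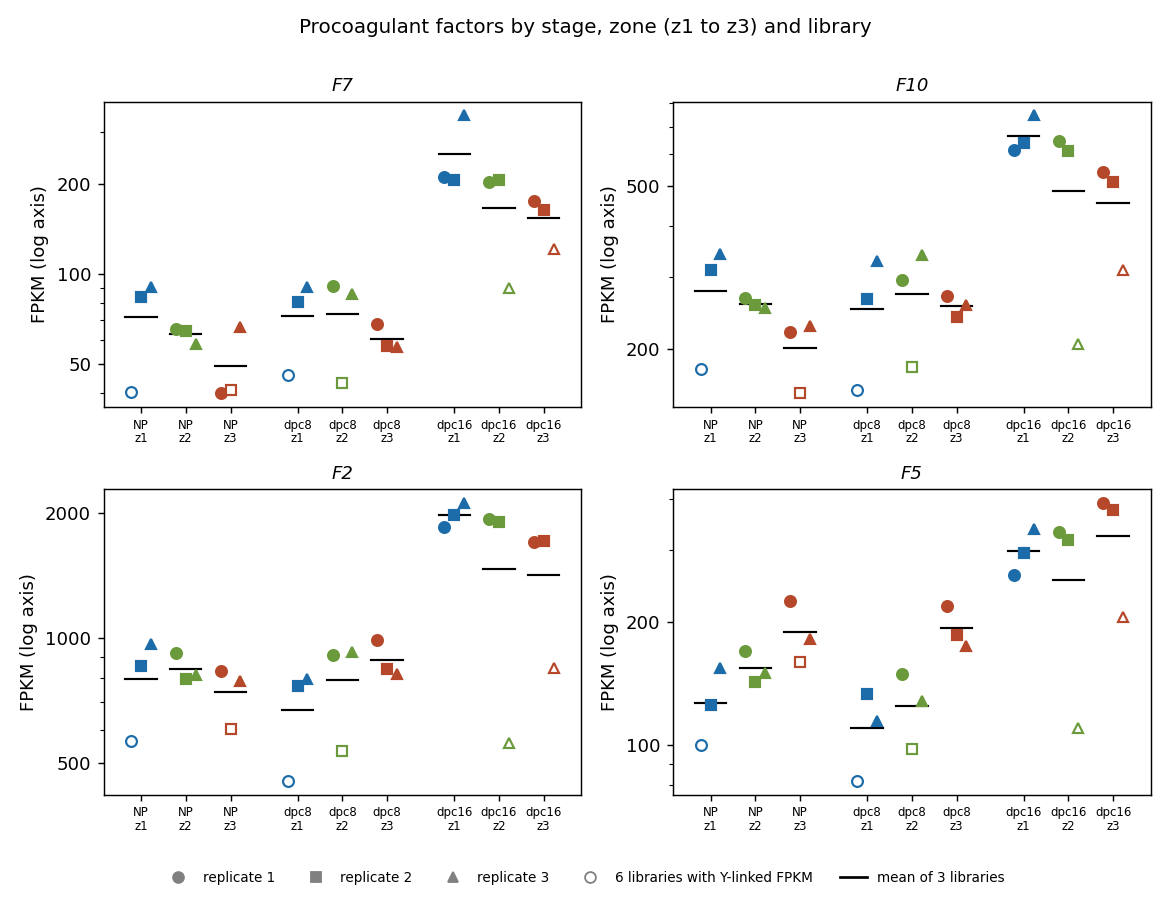
FPKM on log axes for F7, F10, F2 and F5 in each library, by stage and zone (z1 to z3), with shapes for replicate numbers, open symbols for the 6 libraries with Y-linked FPKM and bars for the mean of 3 libraries. F7 at 16 dpc runs from 89.6 to 340 FPKM, against 40.0 to 91.3 at the other stages, and the lowest 16 dpc points in the F10, F2 and F5 panels are the open triangles.

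Over all members, F7 and F10 were the 2 of 36 tested that passed at 16 dpc against NP with zones averaged, both higher, where 3.08% of the 12952 genes tested passed in either direction. The share of all genes that passed as higher was 1.48%. Against 8 dpc it was F7 and F5, again 2 higher, beside 2.14% of all genes in either direction and 1.06% higher. The NP and 8 dpc comparisons share the 16 dpc libraries. Within zones, 1 of 36 passed in each, always higher: F7 in zone 1 (1.37% of all genes, 0.996% higher), Vwf in zone 2 (2.66%, 1.02% higher) and F7 in zone 3 (1.32%, 0.749% higher). The median log2 difference of the 36 members at 16 dpc against NP was 0.79 in zone 1, 0.25 in zone 2, 0.34 in zone 3 and 0.36 with zones averaged, against -0.05, 0.04, 0.01 and -0.01 for all genes. Without the 6 libraries these medians were 0.52, 0.52, 0.44 and 0.53, so that zone 1 no longer stood above the other zones, with -0.03 for all genes in the last. In zone 1, 19 of 36 members had all 3 of their 16 dpc values above all 3 NP values, beside 9.42% of all genes. In zones 2 and 3 the numbers were 2 and 4, beside 7.77% and 7.84%, and with the zone averages it was F2, F5, F7, F10, Vwf and Serpina10 higher and Ggcx lower, beside 9.4% and 10.8% of all genes, with A2m left out because it passed the filter only through 16 dpc libraries. In zone 1, 19 members had an unadjusted p under 0.05, beside 11% of all genes, and without NP zone 1 replicate 1, which is among the 6, that number was 7, beside 9.03% of all genes.

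Without the 6 libraries, 19 of the 36 members passed at 16 dpc against NP, 18 higher and 1 lower, beside 10.6% of all genes (5.71% higher and 4.85% lower), in a fit to the 21 libraries with stage and replicate number as a block. Of the procoagulant genes 7 of 10 were higher, from F12 at 1.44-fold through F9 at 1.63-fold, F5 at 2.06-fold, F2 at 2.19-fold and F10 at 2.29-fold to F7 at 3.18-fold and Vwf at 6.91-fold. The 3 fibrinogen chains, both kininogens, Serpinc1, Proz, Serpina10, Plg, Hrg and Pzp made up the other 11, with Hrg at 1.31-fold the smallest and Serpina10 at 2.40-fold the largest of them. The member that was lower was Ggcx, at 0.64-fold. Among those that did not pass in this fit was Proc, at 1.06-fold (adjusted p = 0.707), and so were Pros1, F8, F13b, Klkb1, Serpind1, Serpinf2 and Cpb2. Within zones 1, 2 and 3 of these 21 libraries, 7, 10 and 9 members passed, beside 2.92%, 4.45% and 3.61% of all genes, and against 8 dpc 19 passed, beside 12%. The fit to all 27 libraries with the same block called 7 members against NP, 6 higher and 1 lower, beside 6.8% of all genes.

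**Figure D3:**
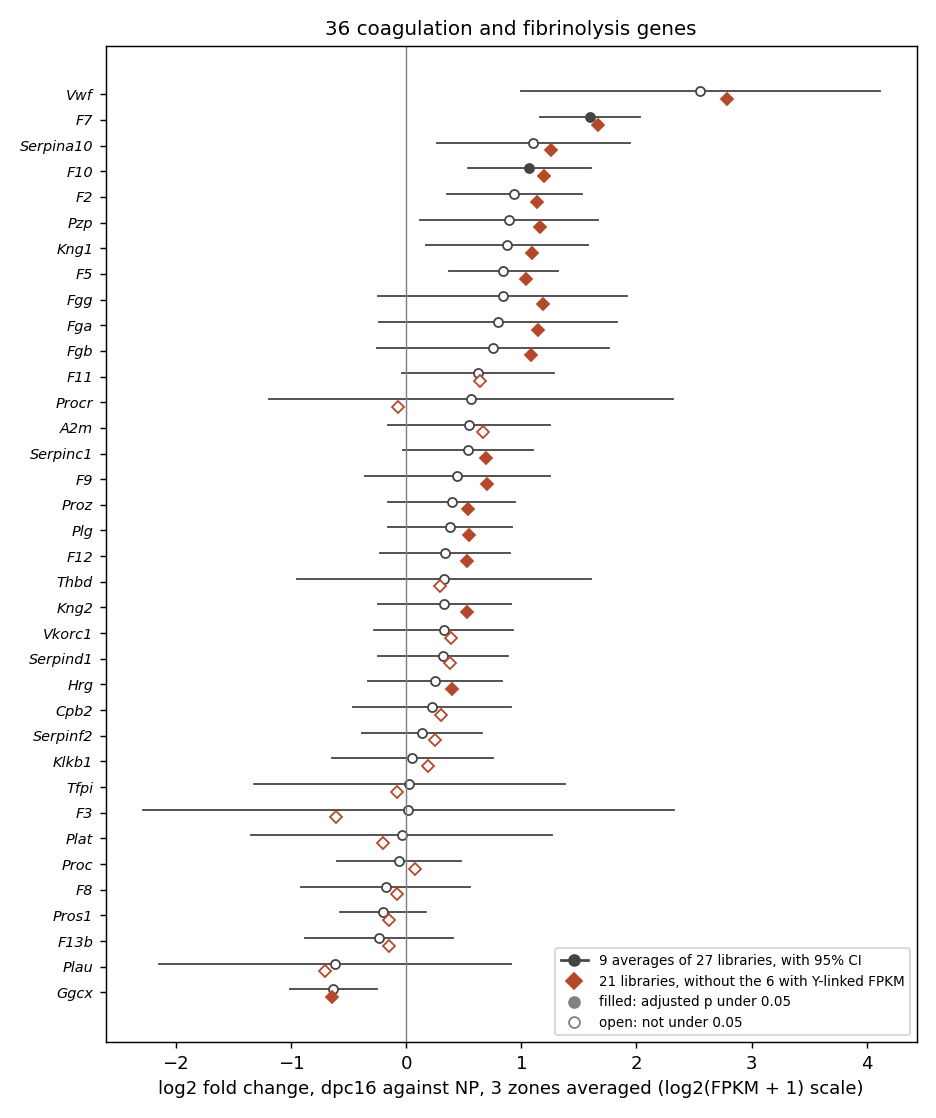
Log2 fold change at 16 dpc against NP, 3 zones averaged, for the 36 members tested, on the log2(FPKM + 1) scale. Circles with 95% confidence intervals come from the 9 averages of all 27 libraries. Diamonds come from the fit with a block to the 21 libraries without the 6, so the symbols differ in model as well as in libraries. Filled symbols mark an adjusted p under 0.05: 2 circles (F7 and F10) and 19 diamonds, 18 to the right of 0 and Ggcx to the left.

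Hepatocyte markers had a median difference in the same direction. At 16 dpc the median log2 difference of the 10 hepatocyte markers against NP, zones averaged, was 0.63, and 1 of the 10 passed, lower. The summed FPKM of these markers was 192305 to 282973 in the libraries of replicates 1 and 2 at 16 dpc, 60822 to 217460 in replicate 3, and 48706 to 128310 in NP and 8 dpc liver. When each library was centred on these 10 markers, no member passed at 16 dpc against NP, where 3.13% of all genes did, F7 differed by 1.04 (adjusted p = 0.0615) and F10 by 0.52 (adjusted p = 0.217), and the median of the 36 members was -0.13 against -0.41 for all genes. Against 8 dpc, F7 differed by 0.49 (adjusted p = 0.175) and F5 by 0.07 (adjusted p = 0.81). On the same scale 9 members passed against 8 dpc, 1 higher and 8 lower, beside 0.456% of all genes higher and 16.2% lower, and the median of the 36 was -0.41 in place of 0.44, against -0.74 for all genes. The part of the hepatocyte share or of library composition in these differences was not tested.

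The fibrinogen chains differed between libraries of the same stage. Fga, Fgb and Fgg encode the alpha, beta and gamma chains that assemble into fibrinogen, a protein also known to rise in the acute phase. Fga was 3754, 9034 and 3909 FPKM in the 3 libraries of zone 1 at 16 dpc, then 4127, 8600 and 1109 in zone 2 and 3150, 6837 and 1485 in zone 3. In NP and 8 dpc liver it ran from 1326 to 3327. Replicate 2 was thus the highest in every zone at 16 dpc, and the 2 lowest libraries were those of replicate 3 among the 6. The averaged difference against NP was 0.80 for Fga, 0.75 for Fgb and 0.84 for Fgg, with adjusted p from 0.451 to 0.478 and intervals such as -0.23 to 1.83 for Fga. Within a library the chains kept close proportions: the ratio of Fga to Fgb was 1.96 to 2.70 over the 27 libraries and that of Fgg to Fgb 1.60 to 2.12, while Fga itself varied from 1109 to 9034.

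Other members and lists shared the high values of 16 dpc replicate 2. Serpina10, the protein Z dependent inhibitor of factor X, was 444, 435 and 380 FPKM in its 3 zones, against 211 to 240 in replicate 1 and 61.2 to 237 in NP and 8 dpc liver. A2m was 1.36, 2.80 and 1.12 FPKM there and at most 0.354 in every other library. The mean log2 level of 13 acute-phase genes was 8.42 to 8.75 in replicate 2, 6.65 to 7.79 in replicate 1 and 6.19 to 8.11 in NP and 8 dpc liver, and the acute-phase list had 1 of 13 genes called at 16 dpc against NP. F7 and F10 did not share this order, with F10 at 614, 644 and 542 FPKM in replicate 1 and 638, 610 and 511 in replicate 2. The part of an acute-phase state of that replicate in the fibrinogen values was not tested.

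**Figure D4:**
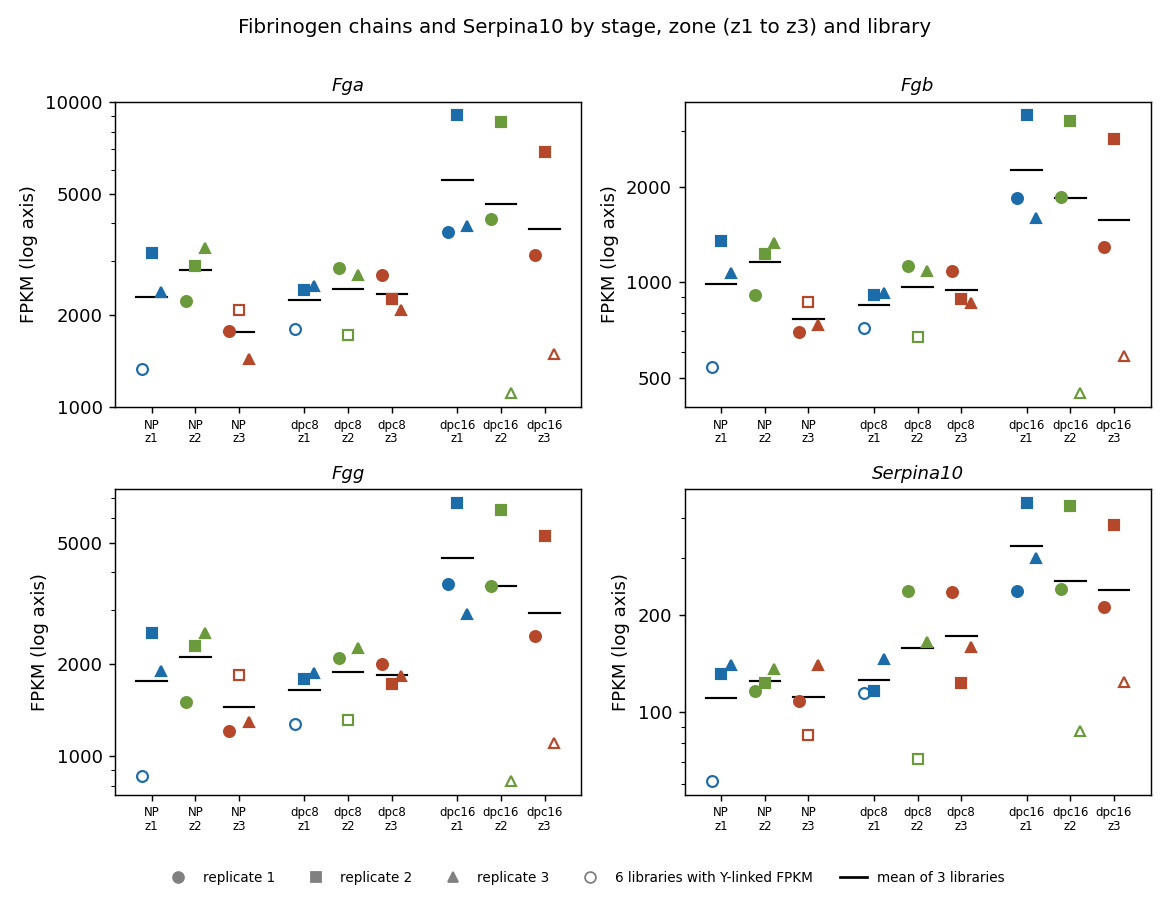
FPKM on log axes for Fga, Fgb, Fgg and Serpina10 in each library, by stage and zone (z1 to z3), with shapes for replicate numbers, open symbols for the 6 libraries with Y-linked FPKM and bars for the mean of 3 libraries. The squares of 16 dpc replicate 2 are the highest in every zone of every panel, reaching 9034 FPKM for Fga.

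Von Willebrand factor, which carries factor VIII and binds platelets, was low in NP and 8 dpc liver and high in part of the 16 dpc libraries. Vwf was 0.399 to 5.88 FPKM in NP and 0.0303 to 6.89 at 8 dpc. At 16 dpc it was 69.3, 54.6 and 5.06 in zone 1, then 28.4, 62.7 and 3.35 in zone 2 and 14.5, 15.0 and 3.81 in zone 3. Replicates 1 and 2 lay above every NP and 8 dpc library in all 3 zones, and replicate 3 did not. In zone 2 Vwf rose by 3.46 ± 0.83 on the log2(FPKM + 1) scale (adjusted p = 0.0228), and the averaged difference of 2.55 ± 0.69 did not pass (adjusted p = 0.0967). The zone 2 call was lost without any of 4 of its 6 libraries (NP replicate 1 or 2, or 16 dpc replicate 1 or 2), with adjusted p from 0.0777 to 0.119. The summed FPKM of 13 endothelial markers was 232 to 326 in the libraries of replicates 1 and 2 at 16 dpc, within the 139 to 401 of NP and 8 dpc liver, and none of the 13 was called at 16 dpc against NP. The summed FPKM of 6 platelet markers was 4.17 to 7.90 in the same libraries and 1.42 to 16.2 in NP and 8 dpc liver. The summed hepatocyte markers were 192305 to 282973 FPKM in the same libraries, and 217460 in 16 dpc zone 1 replicate 3, where Vwf was 5.06 FPKM. The part of these cell types in the Vwf values was not tested.

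The 36 differences are next taken by role. At 16 dpc against NP, zones averaged, the median log2 difference was 0.73 for the procoagulant genes, of which 2 of 10 passed, and 0.78 for the clot substrate genes, of which 0 of 4 tested passed. It was 0.33 for the contact system, 0.33 for the anticoagulants, 0.18 for fibrinolysis and its inhibitors and -0.15 for the vitamin K cycle, with none passed in these 4 roles. Neither broad inhibitor passed, and no median is given for a pair that includes A2m. Over all 36 members 29 differences were above 0 and 7 below. The 29 include A2m, which passed the filter only through 16 dpc libraries. The median difference over all genes tested was -0.01.

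In the contact system, which can start clotting on surfaces, Kng1 ran from 827 to 2125 FPKM in NP, with a median of 1207, and from 867 to 3496 at 16 dpc, with a median of 3224. Its averaged difference was 0.88 (adjusted p = 0.196). Kng2, its paralog, had medians of 177 and 306 FPKM, and a difference of 0.33 with an interval from -0.25 to 0.91. Klkb1, the zymogen of plasma kallikrein, differed by 0.05 with an interval from -0.65 to 0.76.

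Among the anticoagulants, Serpinc1 had medians of 2483 FPKM in NP and 4151 at 16 dpc, and differed by 0.54 with an interval from -0.03 to 1.10. Its 16 dpc libraries ran from 1483 to 5700 FPKM, a range that took in the whole of the NP range. Proc, the zymogen of the protease that inactivates factors V and VIII, stayed between 141 and 234 FPKM in NP and between 81.9 and 247 at 16 dpc, with a difference of -0.06 and an interval from -0.60 to 0.48. Serpina10 had the largest difference of this role, 1.10 with an interval from 0.27 to 1.94 (adjusted p = 0.17).

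Of the fibrinolytic members, Plg had a median of 1184 FPKM in NP and 1658 at 16 dpc and differed by 0.38, with an interval from -0.16 to 0.92. Serpinf2 differed by 0.14 and Cpb2 by 0.23, with intervals from -0.38 to 0.66 and from -0.46 to 0.91. The activators Plat and Plau had wide intervals, and that of Plau ran from -2.14 to 0.91. Pzp, an inhibitor that traps proteases of many kinds, had medians of 2055 and 4206 FPKM and a difference of 0.89 (adjusted p = 0.227).

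The carboxylase Ggcx, which modifies F2, F7, F9, F10, Proc, Pros1 and Proz, had lower values at 16 dpc than in NP liver in zones 2 and 3. Its levels in NP liver were 34.2, 54.5 and 57.6 FPKM in zone 1, then 47.2, 46.0 and 37.9 in zone 2 and 47.6, 54.5 and 46.4 in zone 3. At 16 dpc they were 34.1, 29.3 and 40.1 in zone 1, then 27.4, 29.8 and 25.8 in zone 2 and 25.8, 32.1 and 26.5 in zone 3. The values did not overlap in zones 2 and 3 and did in zone 1. The averaged difference of -0.63 ± 0.17 missed the threshold with all 27 libraries (adjusted p = 0.0906). In the fit with a block to the 21 libraries without the 6, the difference passed, at -0.64 ± 0.14 (adjusted p = 0.00514). The ratio of Ggcx to F2 within a library ran from 0.0465 to 0.0905 in NP and from 0.0142 to 0.0461 at 16 dpc, so the 2 ranges did not overlap. Vkorc1, which recycles the vitamin K that Ggcx uses, differed by 0.33 with an interval from -0.28 to 0.93.

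At 8 dpc no member passed against NP in any zone or with zones averaged by limma, and none had an unadjusted p under 0.05, where 3.13%, 5.06% and 2.74% of all genes did in zones 1, 2 and 3 and 3.17% with zones averaged. Few genes of any kind passed there: 0.0309% of all genes in zone 1, 0.00772% in zone 2, 0.0154% in zone 3 and 0.0154% with zones averaged. For F7 the averaged difference was 0.18 with an interval from -0.26 to 0.61, and for F10 it was 0.08 with an interval from -0.45 to 0.61. For Fga the interval was wider, from -0.96 to 1.11. Without the 6 libraries no member passed at 8 dpc with zones averaged, beside 0.178% of all genes.

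Across the lobule, Pros1 was the member that passed between zones. Its gene lies at chr16:62854307-62929346 on the plus strand of mm10. Protein S is made by hepatocytes and endothelial cells and serves activated protein C. In zone 3 its levels were 43.2, 32.8 and 49.6 FPKM in NP liver, then 64.9, 46.6 and 46.0 at 8 dpc and 33.7, 47.7 and 32.5 at 16 dpc. In zone 1 they were 30.7, 16.9 and 32.4 in NP liver, then 19.2, 23.9 and 22.6 at 8 dpc and 20.9, 20.6 and 21.4 at 16 dpc. The zones did not overlap at any stage. Averaged over stages, Pros1 was lower in zone 1 than in zone 3 by 0.54-fold (-0.89 ± 0.14, adjusted p = 1.68e-04), as 1 of 36 members beside 5.59% of all genes in either direction and 2.89% lower. It was also lower in zone 2 than in zone 3, by -0.71 ± 0.14 (adjusted p = 0.0056), beside 1.88% of all genes in either direction and 1.07% lower. Scaling on hepatocyte markers ended that call (adjusted p = 0.391). No member passed between zones 1 and 2, where 0.919% of all genes did. At 8 dpc alone the difference between zones 1 and 3 was -1.21 ± 0.24 (adjusted p = 0.00762), beside 1.61% of all genes in either direction and 0.926% lower. The 8 dpc call was lost without 8 dpc zone 1 replicate 1 (0.0514) or 8 dpc zone 3 replicate 1 (0.0653). Fitting only the groups compared and scaling on hepatocyte markers also ended it. In NP and at 16 dpc no member passed between zones 1 and 3 by limma, where 1.34% and 1.55% of all genes did. At an unadjusted p under 0.05 there were 1 and 3 members, beside 8.02% and 7.86% of all genes. Proc, the protease that protein S serves, was 91.9, 168 and 181 FPKM in zone 1 and 210, 208 and 199.9 in zone 3 at 8 dpc, without overlap, and did not pass there (-0.54, adjusted p = 0.564). In NP and at 16 dpc its zones overlapped.

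**Figure D5:**
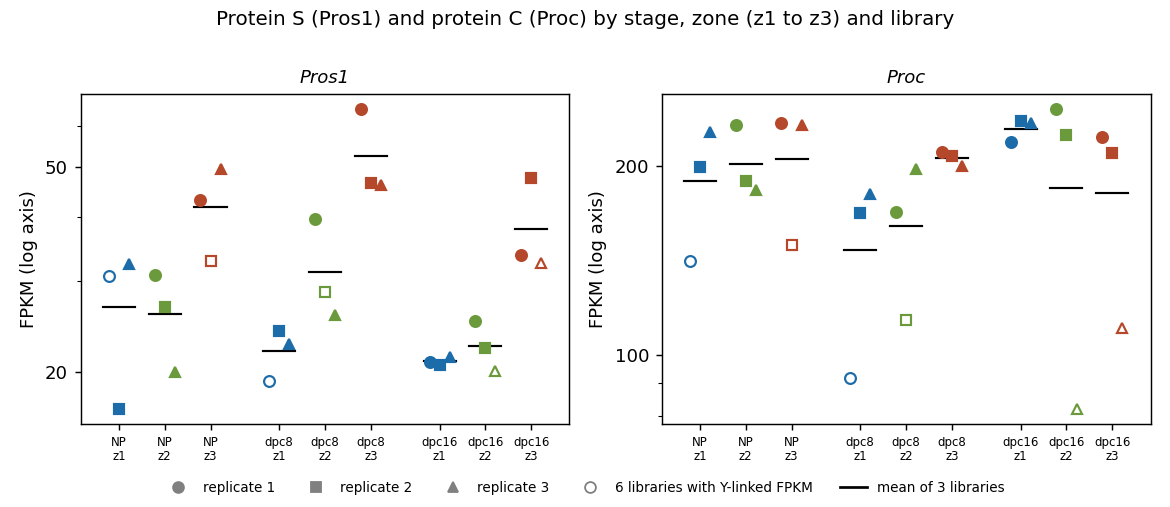
FPKM on log axes for Pros1 and Proc in each library, by stage and zone (z1 to z3), with shapes for replicate numbers, open symbols for the 6 libraries with Y-linked FPKM and bars for the mean of 3 libraries. All Pros1 values of zone 3 lie above those of zone 1 at every stage, with means of 52.5 and 21.9 FPKM at 8 dpc. For Proc the values of zones 1 and 3 are free of overlap at 8 dpc alone.

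Without the 6 libraries, 6 of 36 members passed between zones 1 and 3 averaged over stages, beside 8.18% of all genes (4.25% higher and 3.93% lower). Kng1, F7, F10 and Serpinf2 (the inhibitor of plasmin) were higher in zone 1, by 0.48, 0.59, 0.36 and 0.41 on the log2 scale. Pros1 and F5 were lower, by -0.99 and -0.51. With all libraries the F5 difference was -0.49 (adjusted p = 0.173) and that of F7 was 0.46 (adjusted p = 0.288). The counts of members whose zone 1 values all lay above or all below zone 3 were 0 and 2 in NP, 2 and 7 at 8 dpc and 14 and 2 at 16 dpc. Over all genes the shares were 6.63% and 6.05%, 12.8% and 10.5%, and 8.36% and 6.39%. The difference between zones 1 and 3 in the change from NP to 16 dpc was tested as an interaction, and no member passed by limma, nor had any an unadjusted p under 0.05, where 0.054% of all genes passed and 3.16% had such a p.

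Another 25 genes of the same pathway stood beside the members, of which 22 were tested. None of the 22 passed at 16 dpc against NP, where 3.08% of all genes did. Between zones 1 and 3, averaged over stages, 2 were higher and 1 lower, beside 5.59% of all genes: the serine protease Hgfac, which activates hepatocyte growth factor, by 1.21 (adjusted p = 5.06e-04), the cargo receptor Lman1, which exports factors V and VIII from the endoplasmic reticulum, by 0.44 (adjusted p = 0.0402), and C4bp, whose human protein binds protein S, by -0.80 (adjusted p = 0.0442). Gas6, a vitamin K dependent relative of protein S, was lower in zone 2 than in zone 3 by -1.15 (adjusted p = 0.0198), as was called for 1.88% of all genes, and lower at 16 dpc than at 8 dpc by -1.81 (adjusted p = 0.0444), where 2.14% were called.

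Some members share sequence with other annotated genes, so that reads could be divided between them. In windows of 86 bases, the read length, 7.83% of Kng1 and 7.70% of Kng2 were shared with each other. Serpinc1 shared 58.5% of its windows with transcripts of Zbtb37, Vkorc1 47.8% with Gm21974, Klkb1 42.3% with Gm45753 and Plg 12.6% with Slc22a3. Windows came from the longest annotated transcript of each member and were matched on either strand. How far the shared windows change the FPKM of these members was not measured. F7, F10, F2, Pros1, Ggcx, Vwf, Fga and Fgb shared none.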

How the data were processed

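Laser-microdissected liver zones were profiled by total RNA sequencing after ribosomal depletion. The authors trimmed single-end reads with cutadapt, aligned them to mm10 with HISAT2 2.1.0, and deposited FPKM values from Cuffdiff (Cufflinks 2.2.1) with GENCODE vM22 protein-coding genes. Cuffdiff's own test needs reads and was not used. FPKM hold no counts, so low values rest on few reads: 1 read on 1 kb was worth 0.03 to 0.133 FPKM, as estimated from the steps of low values (88.7 to 96.0% whole within 0.1 read in each library).

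Values were put on the log2(FPKM + 1) scale, which understates the change of low genes, and compared with limma (version 3.58.1, under R 4.3.3) over 12952 genes with at least 1 FPKM in at least 3 libraries. One fit held the 9 group means, and stage comparisons over zones used 9 averages of the 3 zones of a stage and replicate number. Tests were two-sided with trend and robust settings and Benjamini-Hochberg adjustment over all genes, at a threshold of 0.05, in 16 comparisons. Errors of log2 differences are SE and intervals are 95%. Gene lists and members were chosen with earlier results of these data known. Members past the threshold were to be named, with values in each library for up to 5 a direction, along with low, non-hepatocyte and paralogous members. Values in each library of F2, Fga, Serpina10 and Ggcx were added after seeing them. Alternatives were another pseudocount, no filter, quantile and median-of-ratios scaling, only the groups compared, array weights, a replicate block, leaving out the 6 libraries with Y-linked FPKM over 5, a connective tissue covariate, leaving out each library, and, chosen after seeing the data, scaling on 10 hepatocyte markers. Libraries with the same replicate number deviated together at 16 dpc, with correlations over 0.1 in 9 of 9 pairs, against 4 of 9 in NP and 5 of 9 at 8 dpc. The highest, 0.863, was between zones 2 and 3 of 16 dpc replicate 3, both among the 6. Deviations were taken from group means of 3 libraries, so these libraries also enter the deviations of replicates 1 and 2. What the number marks is not given in the sources used here.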

Additional observations from a re-analysis of the deposited data

Results flagged for a closer look

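Prothrombin (F2) and plasminogen (Plg) drew attention because their zone 1 libraries lay on opposite sides of zone 3 at different stages. For F2 the zone 1 against zone 3 log2 difference was -0.43 at 8 dpc, with all 3 zone 1 values below all 3 zone 3 values, and 0.55 at 16 dpc, with all 3 above. For Plg it was -0.46 at 8 dpc and 0.40 at 16 dpc, with the same separation. Without the 6 libraries with Y-linked FPKM the values were smaller, at -0.17 and 0.21 for F2 and -0.18 and 0.15 for Plg, and none passed. The difference between 8 dpc and 16 dpc was not tested for either gene. The 8 dpc zone 1 and 16 dpc zone 3 groups each hold 1 of those 6 libraries. At 8 dpc, 7 of 36 members had all zone 1 values below all zone 3 values, beside 10.5% of all genes. At 16 dpc, 14 of 36 had all zone 1 values above, beside 8.36% of all genes. The share of all genes with both separations is not given, so whether F2 and Plg are unusual cannot be told.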

How the results depend on the processing

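None of the 10 differences called for F5, F7, F10, Pros1 and Vwf changed direction under any alternative. Differences that were not called could do so: that of Proc at 16 dpc against NP was -0.06 with all libraries and 0.08 without the 6. Shares in brackets are those of all genes called in the same fit. Fitting only the groups compared left 0 members called between zones 1 and 3 at 8 dpc (1.2%), 0 in each zone at 16 dpc against NP (0.456%, 0.131% and 0.309%), and 1 in each averaged comparison (0.981% and 0.803%), as did testing without the filter for the averages (1.7% and 1.1%). Quantile scaling gave 2 between zones 1 and 3 over stages (5.19%) and 2 in zone 3 at 16 dpc (1.19%), and median-of-ratios scaling 2 in zone 2 (2.76%). Array weights gave 2, 1 and 4 between zones 1 and 3 at 8 dpc, at 16 dpc and over stages (6.6%, 3.83% and 11.2%), then 9, 10 and 7 in zones 1, 2 and 3 at 16 dpc (5.15%, 8.5% and 5.99%), and 13 against NP and 21 against 8 dpc for the averages (9.78% and 18.3%). Without the 6 libraries the numbers were 6 over stages (8.18%), then 7, 10 and 9 in the zones (2.92%, 4.45% and 3.61%). For the stage comparisons over zones they were 19 and 19 (10.6% and 12%). Those 2 came from single libraries with a replicate block and not from averages, so the model differed as well as the libraries. With a connective tissue covariate they were 5 (8.38%), then 5, 4 and 5 (2.51%, 6.42% and 4.19%), then 8 and 8 (7.53% and 6.42%). Hepatocyte marker scaling, chosen after seeing the data, gave 0 between zones 1 and 3 at 8 dpc (1.78%), 3 over stages (4.59%), 0 between zones 2 and 3 (1.74%), then 3, 2 and 4 in the zones (6.3%, 3.97% and 4.29%), and 0 and 9 for the averages (3.13% and 16.6%). Leaving out 1 library at a time gave 0 to 1 at 8 dpc between zones 1 and 3, and 0 to 2, 0 to 4 and 0 to 1 in zones 1, 2 and 3 at 16 dpc. Shares of all genes in these fits are not given, so the counts cannot be set against them. With no library left out the shares were 1.61%, 1.37%, 2.66% and 1.32%. Leaving out 1 zone average gave 1 to 13 against NP and 1 to 11 against 8 dpc, with the highest numbers without 16 dpc replicate 3 (6.51% and 7.37%). With the replicate block on all libraries, pairing them by stage and number, 2 members were called in zone 1 (1.71%). In each stage comparison over zones 7 were called (6.8% and 6.18%), again from single libraries and not averages. Other counts of calls stayed within 1.5 times. The cause of these differences was not tested.

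Pros1 between zones 1 and 3 over stages was called under all 10 other settings and without each of 18 libraries, and F7 against NP with zones averaged under 9 of 10 and without each of 6 averages. Values near 0 FPKM rest on few reads, which limits Procr, Plat, Plau and A2m in the libraries where they are near 0, and with 3 libraries a group smaller differences could not be detected.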

Other observations

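The 2 kininogen genes, neighbours on chromosome 16, did not keep a fixed proportion: the ratio of Kng1 to Kng2 within a library was 5.04 to 10.2 in NP, 6.06 to 9.86 at 8 dpc and 8.16 to 10.9 at 16 dpc. The ratio of F2 to its inhibitor Serpinc1 was 0.284 to 0.334 in NP, 0.289 to 0.386 at 8 dpc and 0.364 to 0.461 at 16 dpc. The ratio of F10 to Serpinc1 was 0.0766 to 0.112 in NP and 0.130 to 0.147 at 16 dpc. The 37 members together made up 1.76 to 4.48% of the summed FPKM of a library, with medians of 2.67% in NP, 2.79% at 8 dpc and 3.31% at 16 dpc.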
